A study of Saccharomyces cerevisiae with 13 samples.

Results

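The galactose regulon of budding yeast was examined here through 6 genes, picked out of the 6326 genes of the deposited tables by systematic name: GAL1 (YBR020W), GAL10 (YBR019C), GAL7 (YBR018C), GAL3 (YDR009W), GAL80 (YML051W) and GAL4 (YPL248C). Nucleosome signal was measured with nascent chromatin avidin pulldown, in which newly replicated DNA carrying the thymidine analog EdU is isolated after digestion with micrococcal nuclease (MNase), an enzyme that removes DNA not protected by nucleosomes or other proteins. The cells were W303-derived, carried the h-ENT1 transporter and what the labels call HPV-Thymidine kinase, which let them take up EdU, and were named rtt109D in the titles, that is, without the acetyltransferase of histone H3 lysine 56. All grew asynchronously in glucose medium, were pulsed with EdU over 5 min, chased with thymidine over 5 min, and fixed at 0, 2, 4, 6, 8, 15 or 25 min after the chase. There were 12 nascent libraries, 6 of replicate 1 (0 to 15 min) and 6 of replicate 2 (2 to 25 min), and 1 bulk library of total chromatin, so that each of 0 and 25 min rests on 1 library, and no strain with RTT109 was analysed here.

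The source label names a chd1 deletion, and the titles of the nascent libraries also contain the words input DNA, although their descriptions name purified nascent chromatin. From 100 to 1000 bp after its listed start, RTT109 had a signal of 0 to 0.0231 in the 6 nascent libraries of replicate 1 and 0.0535 in bulk, while CHD1 had 0.814 to 1.15 in the 12 nascent libraries and 1.07 in bulk, where 1 is the mean of a library. RTT109 lies on chromosome XII, whose genes are listed at 0 in all libraries of replicate 2, so its 0 there checks nothing. In replicate 1 and bulk these values match the titles and not the source label, and in replicate 2 the signal at CHD1 goes against the source label. The values are fragment coverage in 20 bp bins: in the shallowest library an isolated fragment most often covered 7 bins. A bin held on average 2.57 fragments in the 0 min library and 4.94 in the 4 min library of replicate 1, while the rest of replicate 1 had 20.4 to 24.6, replicate 2 had 39.2 to 78.1 and bulk had 58.7, so those 2 shallow libraries carry the largest counting error.

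GAL1 encodes galactokinase, GAL7 galactose-1-phosphate uridylyltransferase and GAL10 the epimerase and mutarotase of the same pathway. Their activator is Gal4, which binds upstream activating sequences, and Gal80 holds Gal4 inactive until Gal3 senses galactose. In glucose, the medium used here, the genes are repressed, in part through the repressor Mig1 and the Tup1-Cyc8 corepressor, and the GAL1-GAL10 promoter is a textbook model of a nucleosome-free activating sequence between positioned nucleosomes. The RNA polymerase II occupancy that the authors list for each gene (its condition is not given in the sources used here) was low at most of the 6: GAL7 stood at -1.08, above 1.82% of genes, GAL3 at -0.881, above 4.07%, GAL10 at -0.726, above 6.96%, GAL4 at -0.505, above 14.7%, GAL1 at -0.330, above 25.5%, and GAL80 at 0.00162, above 50.9%.

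The Gal4 binding letters are shown first, because the values below are placed around them. They were read from the RefSeq R64 genome at the distance before each open reading frame (ORF) that its own annotation gives. GAL1 (chrII:279021-280607, plus strand) and GAL10 (chrII:276253-278352, minus strand) are divergent, with 668 bp between their ORFs, and capitals mark the 3 Gal4 matches of that shared promoter at chrII:278551-278640 and on the GAL1 strand.
GAL1-GAL10 Gal4 sites: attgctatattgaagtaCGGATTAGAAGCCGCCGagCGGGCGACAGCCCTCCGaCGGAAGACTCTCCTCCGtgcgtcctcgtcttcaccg

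Downstream toward GAL1, at chrII:278721-278890, capitals mark a match to the Mig1 core and the TATA letters.
GAL1 Mig1 core and TATA: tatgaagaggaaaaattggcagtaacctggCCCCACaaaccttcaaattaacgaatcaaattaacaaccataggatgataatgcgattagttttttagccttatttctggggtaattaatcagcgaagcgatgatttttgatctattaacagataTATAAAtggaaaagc

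Each of the other genes held 1 match, again in capitals and on the strand of the gene: GAL7 (chrII:275691-275731), GAL3 (chrIV:463134-463174), GAL80 (chrXIII:171410-171450) and GAL4 itself (chrXVI:82798-82838).
GAL7 Gal4 site: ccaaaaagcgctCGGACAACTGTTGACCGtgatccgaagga
GAL3 Gal4 site: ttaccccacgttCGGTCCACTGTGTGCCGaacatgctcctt
GAL80 Gal4 site: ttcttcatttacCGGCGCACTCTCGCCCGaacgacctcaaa
GAL4 Gal4 site: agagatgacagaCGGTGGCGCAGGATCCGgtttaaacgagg

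The letters searched were CGG and CCG with 11 bases of any kind between them for Gal4, which read the same on both strands, CCCCGC or CCCCAC for Mig1 on both strands, and TATAAA on both strands. Over the 500 bp before 6006 ORFs of R64, 2.98% held the Gal4 letters and 0.117% held them 2 or more times, while all 6 GAL genes held them and GAL1 and GAL10 share their 3. The Mig1 letters were in 13.6% of these windows and stood before GAL1, GAL10 and GAL3, and also before GAL80. The TATA letters were in 60.5% and stood before GAL1, GAL7 and GAL80. A match is a description of letters and not of a bound site.

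The files name no genome build and their coordinates are not those of R64 throughout, so sites and bins were joined by distance from the gene only, with an error of up to about 1 bin. The listed start site from which the bins are counted lay 156 bp before the GAL1 ORF, 176 bp before that of GAL3, 56 bp before that of GAL80 and 22 bp before that of GAL4, and 11 bp inside those of GAL10 and GAL7. For GAL1 the listed start thus lies before the TATA letters, 11 bp downstream of it, and a window tied to the listed start is not the same part of the promoter in each gene.

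The region around the 3 Gal4 sites of GAL1 and GAL10 was weakly covered in the early libraries and more covered in the late ones. The median gene had 1.05 in nascent chromatin over the same bins, and GAL1 stood above 15.5% of genes. Over 5 bins (100 bp) centred on the sites, read from the GAL1 rows, the signal was 0.393 at 0 min. At 2 min it was 0.411 in replicate 1 and 0.207 in replicate 2, and at 4 min 0 and 0.122. At 6 min it was 0.260 in replicate 1 and 0.232 in replicate 2, at 8 min 0.391 and 0.796, and at 15 min 0.778 and 0.801. Both replicates were lowest at 4 min and higher at 8 and 15 min than at 4 and 6 min. The 25 min library reached 2.60, and bulk had 0.854, above all 11 nascent libraries from 0 to 15 min. A bulk value above all 11 was found in 14.9% of 5604 genes over the same bins.

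**Figure D1:**
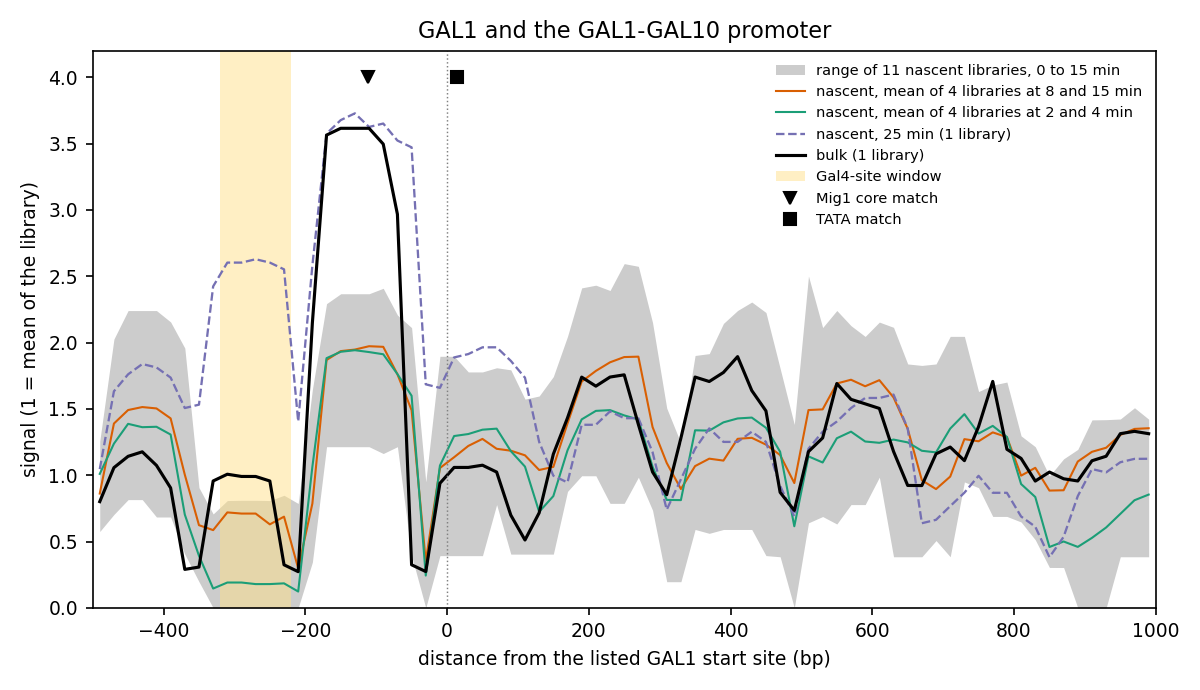
Signal in 20 bp bins (vertical axis, 1 is the mean of the library) against distance from the listed GAL1 start site in bp, with the GAL10 side at the left. The orange line is the mean of 4 nascent libraries at 8 and 15 min, the green line that of 4 at 2 and 4 min, the dashed line the 25 min library, the black line bulk, and the grey band the range of 11 nascent libraries. In the shaded Gal4-site window, from -320 to -220 bp, the late libraries averaged 0.692 and the early ones 0.185, and bulk had 0.854.

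The 4 libraries at 8 and 15 min averaged 0.692 ± 0.200 and the 4 at 2 and 4 min 0.185 ± 0.173 (SD, n = 4 each), a ratio of 3.74. On the GAL1 rows the groups overlapped by 1 library, since 8 min of replicate 1 (0.391) was below 2 min of replicate 1 (0.411). On the GAL10 rows, which list the same DNA in the opposite direction, they did not overlap, with 0.409 as the lowest late value and 0.390 as the highest early one. All 4 late libraries lay above all 4 early ones over these bins in 3.64% of genes on the GAL1 rows and 3.46% on the GAL10 rows. This window was singled out after its values were seen, so no test is given.

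Depth bears on some of these values. The 0 at 4 min of replicate 1 is compatible with a signal of up to 0.607, which is what 3 fragments would give in that library, and the 0 min value rests on 1 fragment per bin. The deeper libraries of replicate 2 held 12.8, 6.4, 18.2, 43.2 and 39.6 fragments per bin at 2, 4, 6, 8 and 15 min. Replicate 2 alone gave a late minus early difference of 0.634 and replicate 1 alone 0.379, against 0.507 over both. The value at 25 min comes from a library that stood above the other 12 libraries over these bins in 34.7% of genes.

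**Figure D2:**
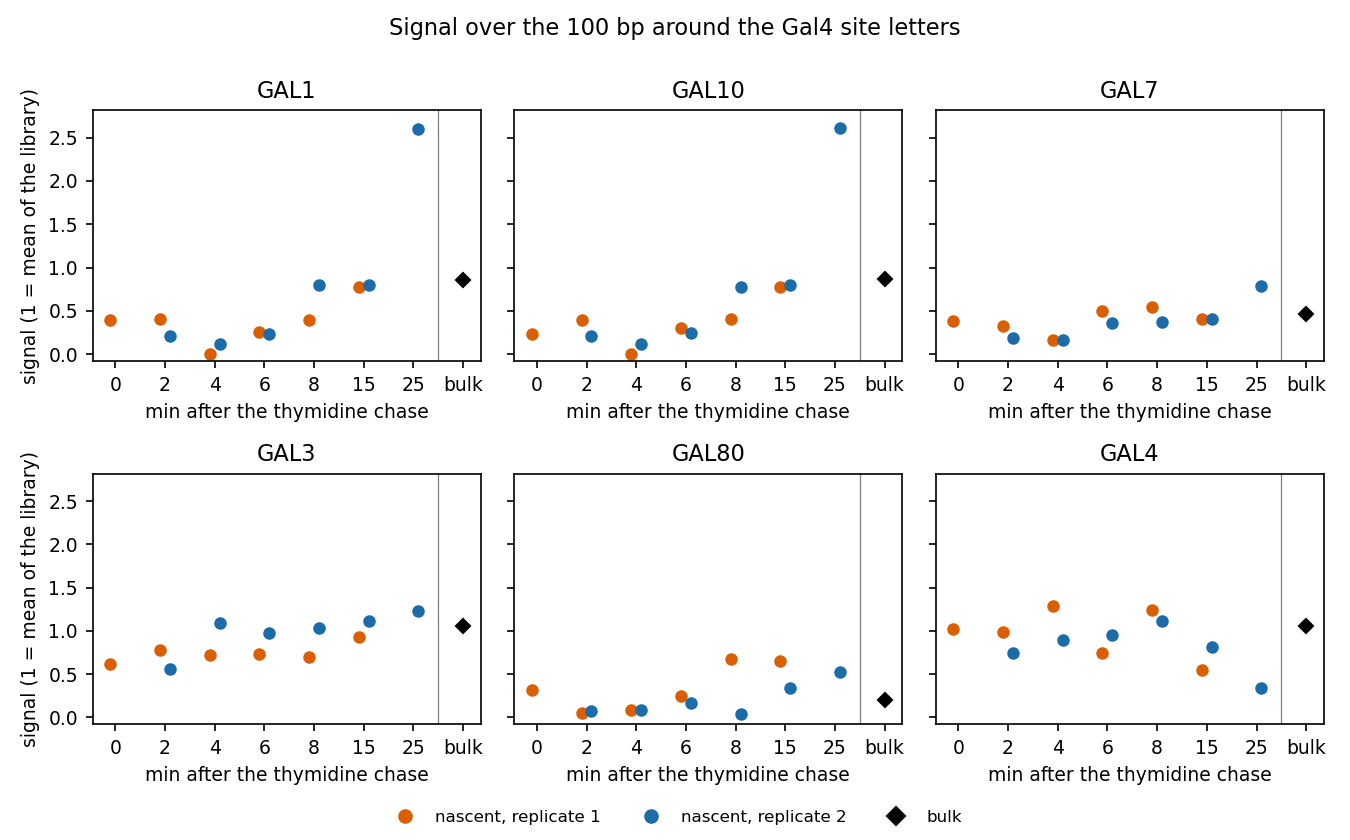
Signal over the 100 bp around the Gal4 site letters of each gene (vertical axis, 1 is the mean of the library) by min after the thymidine chase, with bulk at the right. Each circle is 1 nascent library (orange, replicate 1; blue, replicate 2) and the diamond is bulk. GAL1 and GAL10 show the same DNA, at 0 to 0.801 from 0 to 15 min, and GAL80 separates the replicates at 8 min, with 0.680 in replicate 1 and 0.044 in replicate 2.

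Next to the Gal4 sites, on the side of GAL1, stood the most covered stretch of the GAL1 rows. From -200 to -60 bp of the listed start, where the Mig1 letters lie, nascent chromatin had 1.56 at 0 min, 2.08 and 1.78 at 2 min, 1.13 and 2.11 at 4 min, 1.40 and 1.53 at 6 min, 1.60 and 2.11 at 8 min, and 1.79 and 1.49 at 15 min (replicate 1 before replicate 2), then 3.48 at 25 min. Bulk had 3.29, higher than 99.9% of genes in these bins. The median of the 11 nascent libraries from 0 to 15 min was 1.60, higher than 97.6% of genes. Over these bins bulk lay above all 11 in 12.3% of 5604 genes, and the 25 min library lay above the other 12 in 57.8%. The late libraries averaged 1.75 ± 0.269 and the early ones 1.77 ± 0.456 (SD, n = 4 each), so this stretch, unlike the Gal4-site window, showed no difference between the groups beyond their spread. The stretch was drawn where bulk is highest, which sets in part the lead of bulk over the nascent libraries.

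An interval with its ends set by sequence ran between the last Gal4 site and the TATA letters (-240 to 0 bp). It contains the whole stretch from -200 to -60 bp, drawn where bulk is highest, so its bulk lead is not separate from that choice. The nascent libraries covered the interval at 0.83 to 1.55 with a median of 1.19 from 0 to 15 min, and at 2.93 at 25 min. Bulk had 2.10, which is 1.77 times that median, above all 11 nascent libraries and higher than 99.2% of genes. Over the same bins, bulk lay above all 11 in 13.5% of 5593 genes and the 25 min library lay above the other 12 libraries in 58%. Nascent and bulk libraries differ in their preparation, since only nascent DNA was pulled down. Preparation and maturation therefore cannot be told apart in a comparison of nascent chromatin with bulk.

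GAL7, the third gene of the chromosome II cluster, had a narrow gap at its Gal4 site. In the bin from -200 to -180 bp, which overlaps the letters, the median of the 11 nascent libraries was 0.0898 and their highest value 0.216. Over the 100 bp window the signal was 0.387 at 0 min, 0.323 and 0.188 at 2 min, 0.164 and 0.159 at 4 min, 0.495 and 0.362 at 6 min, 0.543 and 0.368 at 8 min, and 0.404 and 0.409 at 15 min (replicate 1 before replicate 2), then 0.791 at 25 min and 0.464 in bulk. The late libraries averaged 0.431 ± 0.0768 and the early ones 0.209 ± 0.0772 (SD, n = 4 each) and the groups did not overlap, which over these bins was so in the same direction in 3.32% of genes. The median gene had 0.917 in nascent chromatin and 0.877 in bulk over these bins. GAL7 stood above 21.5% of genes in nascent chromatin and above 26.8% in bulk. As at GAL1 and GAL10, the lowest value of each replicate was at 4 min. In replicate 1 the 4 min value of GAL7 rests on 0.8 fragments per bin, in a library where 3 fragments would give 0.607. Replicate 1 therefore cannot show a low at 4 min. With that shallow library left out, the highest early value (0.323) was still below the lowest late value (0.368).

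GAL80, the inhibitor, was weakly covered at its Gal4 site in early libraries, and its replicates then parted. The median gene was also low over these bins, with 0.458 in nascent chromatin and 0.456 in bulk. GAL80 stood above 22.8% of genes in nascent chromatin and above 24.4% in bulk. The window had 0.315 at 0 min, 0.0493 and 0.0775 at 2 min, 0.0832 and 0.0840 at 4 min, 0.251 and 0.162 at 6 min, 0.680 and 0.044 at 8 min, and 0.647 and 0.340 at 15 min (replicate 1 before replicate 2), then 0.525 at 25 min and 0.198 in bulk. The 4 early libraries lay within 0.0493 to 0.0840, while the late ones ran from 0.044 to 0.680 and overlapped them. The late minus early difference was 0.354 over both replicates, 0.597 in replicate 1 and 0.111 in replicate 2, so most of it came from replicate 1. Few fragments stand behind the low values, with 0.4 to 4.8 per bin in the 4 early libraries and 2.4 at 8 min of replicate 2.

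GAL3 and GAL4 showed no gap at the letters. GAL3, the galactose sensor, had 0.555 to 1.11 over its window in the 11 nascent libraries, with 0.945 ± 0.177 in late and 0.788 ± 0.225 in early libraries (SD, n = 4 each), and 1.06 in bulk. The late minus early difference of 0.157 turned to -0.171 after division by body level. The median of all genes over these bins was 0.458 in nascent chromatin and 0.456 in bulk, so the GAL3 site lay in a stretch more covered than most. At GAL4 the letters stand far upstream, and the signal there was 0.544 to 1.29 in nascent chromatin and 1.06 in bulk, with 0.337 at 25 min.

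**Figure D3:**
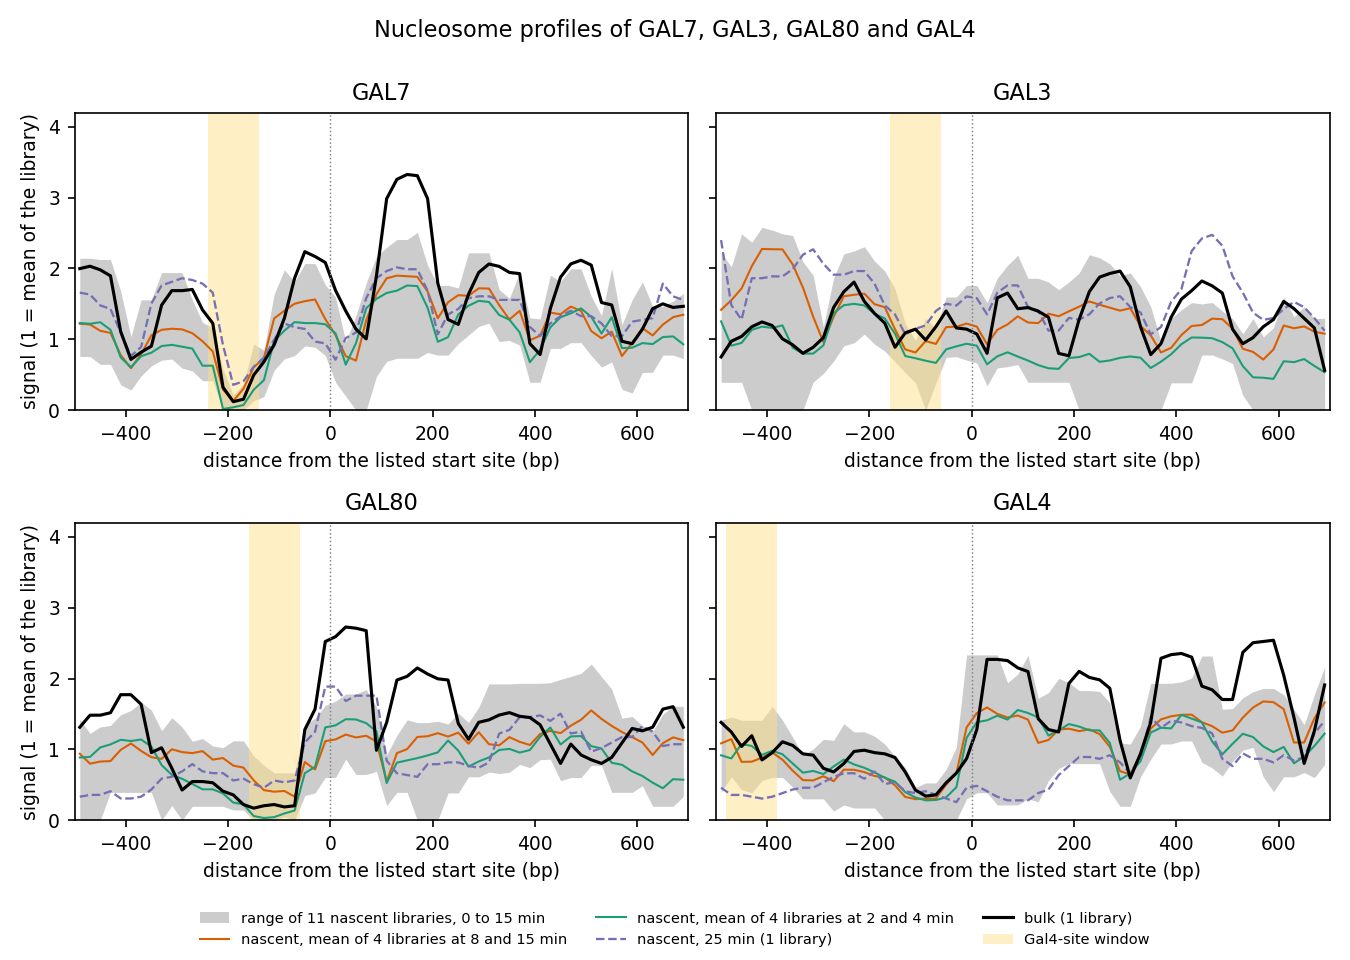
Signal in 20 bp bins (vertical axis, 1 is the mean of the library) against distance from the listed start site in bp for GAL7, GAL3, GAL80 and GAL4, with lines, band and shaded window as in the profile of GAL1. At GAL7, GAL80 and GAL4 a bulk peak (black) near the listed start stands above or at the top of the nascent range. The GAL3 lines are all raised from -240 to -220 bp and cross each other elsewhere.

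At GAL7 and GAL80 a stretch of high bulk signal near the listed start was less covered in nascent chromatin than in bulk. The listed start lies 11 bp inside the GAL7 ORF and 56 bp before that of GAL80, so these are unlike positions. At GAL7, from 100 to 200 bp, the 11 nascent libraries ran from 0.767 through a median of 1.80 to 2.33, and the 25 min library had 1.93, while bulk had 3.17. An earlier bulk peak at GAL7 had 2.24 from -60 to -40 bp, where the highest of the 11 nascent libraries had 2.07. At GAL80, from -20 to 80 bp, the nascent libraries ran from 0.673 through 1.47 to 1.73, the 25 min library had 1.80 and bulk had 2.65. At GAL4, from 20 to 120 bp, they ran from 0.268 through 1.52 to 2.18, and bulk had 2.21, so that the highest nascent library nearly reached bulk. These stretches were also drawn on the bulk profile. A bulk value above all 11 nascent libraries occurred over the same bins in 13.1% of genes for the GAL7 stretch, in 15.5% for that of GAL80 and in 16.3% for that of GAL4.

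The first nucleosome of GAL4 was weak in 2 of the nascent libraries. At 15 min of replicate 1 it had 0.268 and at 25 min of replicate 2 it had 0.316, whereas the other 10 nascent libraries had 1.15 to 2.18. The 15 min library of replicate 2 had 1.93, so the low value at 15 min was not shared by the replicates. The same 2 libraries also had the lowest body levels of GAL4, 0.923 and 1.01, and the lowest signal at its Gal4 site. The 15 min library of replicate 1 was also the lowest nascent library over the stretches drawn at GAL7 (0.767) and GAL80 (0.673). Whether this is general to that library was not tested.

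Body level, the mean signal over the first 1000 bp after the listed start, was compared next between late and early libraries. GAL3 had 0.943 and 1.30 at 8 min and 1.34 and 1.47 at 15 min, against 0.911 and 0.875 at 2 min and 0.772 and 0.878 at 4 min (replicate 1 before replicate 2). No late library was below an early one, and the means were 1.26 ± 0.226 in late and 0.859 ± 0.0603 in early libraries (SD, n = 4 each). The difference was 0.49 ± 0.15 (SE) on the log2(value + 0.1) scale, and it did not pass limma's test over all genes (Benjamini-Hochberg adjusted p = 0.0906, unadjusted p = 0.00408). GAL80 also had groups that did not overlap, with 1.11 ± 0.0380 in late and 0.882 ± 0.0664 in early libraries (SD, n = 4 each) and a difference of 0.31 ± 0.13 (SE; limma, adjusted p = 0.208).

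The other 4 genes differed by less. The late minus early difference in body level was 0.25 ± 0.14 for GAL10, 0.19 ± 0.14 for GAL1, 0.14 ± 0.14 for GAL7 and 0.09 ± 0.18 for GAL4 (SE, log2 scale), with limma's adjusted p from 0.357 for GAL10 to 0.83 for GAL4. Thus 0 of the 6 genes passed in either direction, while 1.5% of 5678 genes passed as higher and 0.176% as lower in late libraries. The 2 genes whose groups did not overlap stand beside 7.12% of all genes that did so in that direction, and 3.79% in the other, and 11.8% of genes were higher and 6.16% lower in late libraries at an unadjusted p under 0.05. The median difference was 0.22 over the 6 genes and 0.01 over all genes tested. With the replicate number as a block, 252 genes passed in place of 95, but none of the GAL genes did, and the adjusted p of GAL3 was 0.0539. Among the alternatives GAL3 passed only without 8 min of replicate 1, its lowest late library, with limma's adjusted p at 0.0388. Without replicate 1 its adjusted p was 0.109, and without replicate 2 it was 0.553.

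**Figure D4:**
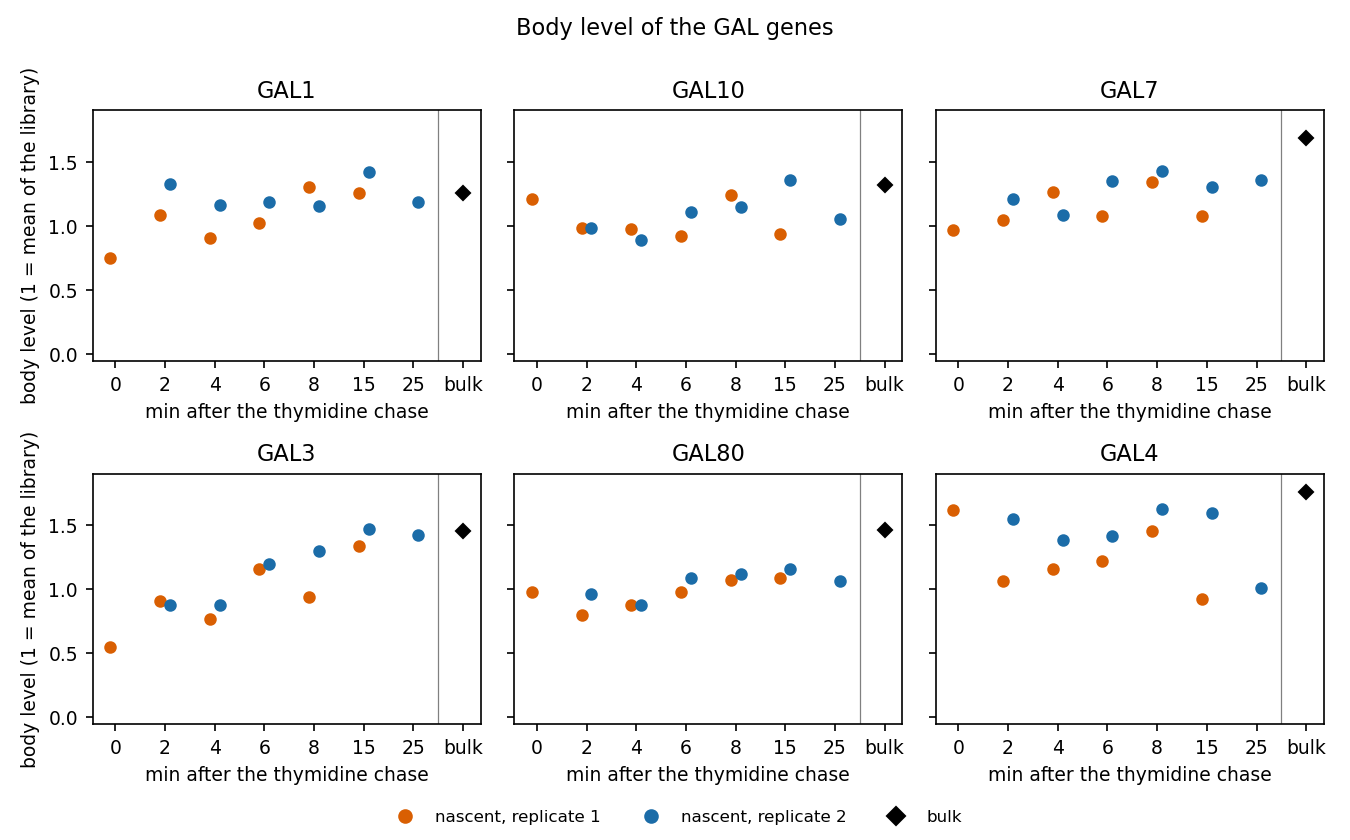
Body level (mean signal from 0 to 1000 bp after the listed start, vertical axis, 1 is the mean of the library) of each GAL gene by min after the thymidine chase, with bulk at the right; circles are nascent libraries (orange, replicate 1; blue, replicate 2) and the diamond is bulk. GAL3 lies between 0.772 and 0.911 at 2 and 4 min and between 0.943 and 1.47 at 8 and 15 min, and the bulk values of GAL7 (1.69), GAL80 (1.46) and GAL4 (1.76) stand above all nascent libraries.

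Against bulk, body levels of GAL genes were lower in nascent chromatin. For GAL7 the 11 nascent libraries from 0 to 15 min had a median of 1.22 and a highest value of 1.43, and bulk had 1.69. For GAL80 the median was 0.984 and the highest value 1.16, and bulk had 1.46. For GAL4 the median was 1.42 and the highest value 1.63, and bulk had 1.76. These 3 of the 6 genes had bulk above all 11 libraries, and they still did when the 25 min library was added. Bulk was above 10 of 11 libraries for GAL10 and GAL3 and above 7 of 11 for GAL1, and it was below all 11 for none. Across 5660 genes bulk was above all 11 in 15.4% and below all 11 in 6.91%. The median ratio of bulk to the nascent median was 1.36 over the GAL genes and 1.05 over all genes.

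The promoter ratio, the mean signal of the bins wholly within -150 to 0 bp over the body level, separated the genes from each other more than it separated the times. In nascent libraries from 0 to 15 min its median was 1.29 at GAL1, 1.17 at GAL10, 0.907 at GAL7, 0.810 at GAL3, 0.551 at GAL80 and 0.346 at GAL4. The range of GAL4 (0.205 to 0.485) lay below those of GAL1, GAL10, GAL7 and GAL3 without overlap, while GAL1 and GAL10, the first 2 of this order, overlapped widely (0.952 to 1.69 and 0.595 to 1.92). GAL80 (0.270 to 0.690) overlapped GAL4, GAL10 and GAL7. The listed start lies 156 bp before the ORF at GAL1 and 11 bp inside it at GAL10 and GAL7. The window thus covers unlike parts of the promoters, and this order compares unlike positions.

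None of the 6 genes passed limma's test on the promoter ratio. Differences between late and early libraries ran from -0.21 ± 0.32 at GAL10 to 0.18 ± 0.30 at GAL7 (SE, log2 scale), with adjusted p from 0.842 to 0.964, and in each of the 6 genes the late and early values overlapped, beside 2.15% of all genes with late entirely above early and 2.72% entirely below. Over 5663 genes, 0.053% passed as higher and 0% as lower, with 3.64% and 4.59% at an unadjusted p under 0.05. GAL1 was the 1 gene with bulk (1.73) above all 11 nascent libraries, beside 8.38% of 5646 genes, but its 25 min library, at 2.56, was higher still, and that library lay above the other 12 libraries in 55.7% of genes. At GAL10 bulk had 0.727, above 1 of the 11 nascent libraries, and no GAL gene had bulk below all of them, beside 7.26% of genes.

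Pattern contrast describes how strongly nascent chromatin follows the mature pattern: bins from -500 to 1000 bp were split at the gene's median in bulk, and the mean of the bins that are high in bulk was divided by that of the low bins, so that 1 means no pattern. GAL80 had 0.960 and 0.990 at 8 min and 1.31 and 1.20 at 15 min, against 1.66 and 1.32 at 2 min and 1.51 and 1.35 at 4 min (replicate 1 before replicate 2). Each late library was below each early one, the difference was -0.37 ± 0.13 (SE, log2 scale), and it did not pass the test (limma, adjusted p = 0.513, unadjusted p = 0.0144). A complete separation was found in 2.55% of 5656 genes in that direction and in 2.62% in the other. GAL4 went the other way without passing (0.19 ± 0.12, adjusted p = 0.708), and GAL10 had a difference near 0 (0.000289 ± 0.12). No gene of the genome passed in either direction (0% each, limma), with 4.3% higher and 3.68% lower in late libraries at an unadjusted p under 0.05.

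Of the 6 genes, GAL3 had the nascent pattern least like that of bulk. Over 75 bins the correlation of each nascent library with bulk (Pearson's r across bins that overlap in fragments, a description) had a median over the 11 libraries of 0.284 at GAL3, with a range of 0.0774 to 0.674. The medians were 0.678 at GAL7, 0.665 at GAL4, 0.603 at GAL1, 0.598 at GAL10 and 0.540 at GAL80. The median gene had 0.639, and 0.873% of 3552 genes with values in all bins lay below GAL3. Bulk itself had little pattern at GAL3, with a pattern contrast of 1.65, the lowest of the 6 genes and above 2% of all genes. At 25 min r was 0.0231 at GAL3, and 0.427 to 0.636 at the other genes. GAL3 also lies closest to a listed replication origin, at 1893 bp, and has the earliest listed replication time of the 6, which 2.15% of genes precede, whereas the other GAL genes lie 5069 to 11537 bp from an origin.

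The strands showed no common asymmetry. The difference between the F and R rows in body level, on the log2(value + 0.1) scale, had a median over the 11 nascent libraries from -0.14 at GAL7 to 0.21 at GAL80, and its sign varied between libraries in each of the 6 genes. These medians lay between the 24.6 and 83.6 percentiles of all genes.

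Across the 13 libraries the body levels of the GAL genes varied in how far they moved together. Among 15 pairs Pearson's r of log2(body level + 0.1) ran from -0.10 for GAL3 and GAL4 to 0.75 for GAL7 and GAL80, and it was 0.20 for the neighbours GAL1 and GAL10. Closest to GAL1 among 5660 genes were HIP1 (r = 0.933), YER076C (0.919) and TIM10 (0.918). Closest to GAL10 were MTG2 (0.824), MLO1 (0.818) and YAP1801 (0.811), and to GAL7 NQM1 (0.891), YDL012C (0.882) and SNQ2 (0.881). GAL3 was followed most closely by YIP1 (0.968), PSD2 (0.952) and TFC3 (0.947), GAL80 by SSC1 (0.961), MCM3 (0.939) and NUP60 (0.916), and GAL4 by CPA1 (0.932), ADO1 (0.926) and YIL067C (0.899). The points share library, replicate and depth, and no p is given.

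Other genes of galactose use were described from a list of 8, which holds the transporter GAL2, the Gal4 target genes GCY1, MTH1 and PCL10, the uracil permease FUR4 next to GAL1, both phosphoglucomutases (PGM1, PGM2) and UGP1, which makes UDP-glucose. GAL2 was not tested, because it too is on chromosome XII. Of the 7 others 0 passed in any of the 3 measures. For body level the highest difference was that of UGP1, with 0.58 (adjusted p = 0.154), and the lowest that of PGM1, with -0.22 (adjusted p = 0.417; limma). The median difference in body level was -0.03, against 0.22 for the GAL genes and 0.01 for all genes. Bulk was above all 11 nascent libraries for 0 of 7 genes in body level and for 1 of 7, PCL10, in promoter ratio, beside 15.4% and 8.38% of all genes.

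Genes of glucose repression were described from a list of 11. These include the repressors MIG1, MIG2 and NRG1, the corepressor genes TUP1 and CYC8, the kinase SNF1 with its partners SNF4 and GAL83, the phosphatase GLC7 with REG1, and the hexokinase HXK2, and 0 passed in any measure. Body level differences ran from -0.20 at SNF1 to 0.40 at GAL83 (limma, adjusted p = 0.617 and 0.136), with a median of -0.00371. MIG1 had a body level of 0.752 to 1.27 in nascent chromatin and 1.44 in bulk, above all 11 libraries, and TUP1 had 1.02 to 2.05 in nascent chromatin and 0.801 in bulk, below all 11. Each is 1 of 11 genes, beside 15.4% of all genes with bulk above and 6.91% with bulk below. In promoter ratio, bulk was above all 11 libraries at 2 of 11 genes, TUP1 and SNF1, beside 8.38% of all genes. PCL10, MIG1, TUP1 and SNF1 are named for their place against bulk, after their values were seen.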

How the data were processed

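The authors deposited signal in 20 bp bins around each listed start site, per strand, as coverage scaled so that each library averages 1; the submitters' processing notes name CASAVA 1.7.0, and the aligner and genome build of these libraries are not given in the sources used here. Cells holding the letter R (1.69%) were treated as missing, and 6 row names belonging to no sample and bins beyond 1000 bp were not used. Both strands were averaged. The bin origin was taken from the listed promoter start. Divergent gene pairs were compared in bulk, and only the 315 whose profiles mirrored each other closely at some lag were counted. Of these, 283 shared the most common lag, -1 bin. Pairs that did not mirror were left out, so this count is not an independent check of the origin. Promoter ratio, body level and pattern contrast were tested with limma 3.58.1 in R 4.3.3 (late, 8 and 15 min, minus early, 2 and 4 min, n = 4 each), on log2(value + 0.1), with Benjamini-Hochberg adjustment over all genes with a body level above 0 in all 8 libraries and a threshold of 0.05. Bulk, being 1 library, was described without a test. Same-numbered libraries are aliquots of 1 culture, per the labels' protocol, so n = 4 counts libraries and not independent cultures. Differences between replicates correlated weakly across times (median r of 0.0151 for body level). The pairing still mattered for the count of genes, since body level called 252 with the replicate number as a block, against 95. Genes were named by a fixed rule: the 6 GAL genes, the extremes of 2 pathway lists, and the 3 genes most like each GAL gene. Beyond that rule, PCL10, MIG1, TUP1 and SNF1 were named for their place against bulk, after their values were seen. Members, lists and windows were chosen with earlier results of these data known, and p-values measure the spread between these libraries.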

Additional observations from a re-analysis of the deposited data

Results flagged for a closer look

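Dixon's test at the 95% level was run over 72 groups of 4 to 6 libraries, in which chance flags about 1 in 20, and 3 values stood apart. The promoter ratio of GAL1 in the 25 min library was 2.56, and the other 5 libraries of the replicate 2 time course lay at 0.952 to 1.41. The pattern contrast of GAL1 at 15 min of replicate 1 was 1.18, and the other 5 of the replicate 1 time course lay at 1.52 to 1.67. The body level of GAL10 at 4 min of replicate 2 was 0.894, and the other 3 libraries at 2 and 4 min lay at 0.974 to 0.989.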

How the results depend on the processing

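Of 342 alternatives for the 3 measures of the 6 GAL genes, 314 kept sign and call, 1 passed the test (GAL3 body level without 8 min of replicate 1) and 27 changed sign, with adjusted p of 0.796 or more (limma). The late minus early difference (log2 scale) with 2 against 15 min was 0.23 for GAL10 and 0.11 for GAL3 in promoter ratio, -0.074 for GAL4 in body level and -0.17 for GAL10 in pattern contrast. With 0, 2 and 4 min against 8, 15 and 25 min it was 0.054 for GAL1 in promoter ratio, -0.054 for GAL4 in body level and -0.057 for GAL10 in pattern contrast. It was -0.000427 for GAL4 in promoter ratio from -200 bp, -0.00375 for GAL4 in body level over 0 to 500 bp, and for GAL10 in pattern contrast -0.000439 with a pseudocount of 0.01 and -0.018 after quantile normalization. When libraries or a replicate were left out, the promoter ratio ran from -0.57 to 0.15 for GAL10, -0.028 to 0.39 for GAL7, -0.060 to 0.31 for GAL80 and -0.096 to 0.19 for GAL4, and the pattern contrast from -0.070 to 0.085 for GAL10 and -0.19 to 0.012 for GAL7. With the replicate number as a block no GAL gene changed its call, while the genes called by body level numbered 252, against 95. The genes called by body level were 214 with a pseudocount of 1, 41 with 0.01, 0 without the filter on low signal, 0 after quantile normalization, 62 with 0, 2 and 4 min against 8, 15 and 25 min, 203 with 2 against 15 min, 58 over 0 to 500 bp, and 2 to 109 when libraries or a replicate were left out. The genes called by promoter ratio, 3 in the report, were 1 with a pseudocount of 1, 9 after quantile normalization, 1 with the wider time groups, 0 with 2 against 15 min, 5 with a window from -200 bp and 0 to 4 in leave-one-out fits. The genes called by pattern contrast, 0 in the report, were 1 with 2 against 15 min, 6 over 0 to 1000 bp and 0 to 3 in leave-one-out fits. The causes were not tested. In promoter ratio, bulk was above all nascent libraries in 170 genes with the 25 min library, against 473 without it, and below all in 704 genes without the shallow 0 and 4 min libraries of replicate 1, against 410 with them.

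Settings for the Gal4-site windows were chosen after seeing the data. The late minus early difference at GAL1 was 0.501 over 3 bins, 0.450 over 7 bins, 0.445 without 4 min of replicate 1, 0.382 after division by body level and 0.846 with the wider time groups. At GAL3 it was -0.171 after division by body level, against 0.157 without it. At GAL4, -0.0529 over all libraries, it was 0.143 without replicate 1 and 0.0507 without 4 min of replicate 1. Depth limits the 0 and 4 min libraries of replicate 1 most, and 0, 25 min and bulk rest on 1 library each.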
